A study of Mus musculus and Acomys cahirinus with 2 samples.

Results

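The hair follicle stem cells described here are 195 cells of mouse ear skin that carried transcripts of Lgr5, a Wnt-enhancing receptor, or Lhx2, a LIM homeodomain transcription factor. They were chosen by rule from the Mus musculus library: barcodes with at least 3000 UMIs (unique molecular identifiers, each marking 1 captured transcript), at least 200 genes and at most 20% mitochondrial UMIs were kept as cells, and of these the Lgr5/Lhx2 cells held at least 2 Lgr5 and Lhx2 UMIs in sum, at least 3 UMIs of the basal keratin Krt5 and fewer than 5 of Krt79, a keratin of the upper follicle and sebaceous duct. They made up 2.56% of the 7632 Mus cells (95% Clopper-Pearson interval 2.21 to 2.93%) and 2.81% of the 6939 Mus cells that met the Krt5 and Krt79 limits, and the series held 12329 cells past the filters in both libraries. The study measured dissociated skin of the ear of adult Mus musculus and of adult Acomys cahirinus, a spiny mouse, with 10x Genomics droplet chemistry that reads the 3' end of transcripts. Each species had 1 library, labelled day 0, and the series text calls the ears injured; no strain, genotype, treatment or number of animals is given in the sources used here. With 1 library per species no test was made, all intervals cover counting error only, and species, animal, library and annotation cannot be told apart.

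The bulge is the niche in the outer root sheath where slow-cycling stem cells of the hair follicle reside, and the hair germ just beneath it holds the progenitors that start a new hair cycle. Wnt signals drive these cells into growth, whereas BMP signals and Wnt inhibitors are known to hold bulge cells in rest. Lhx2 and Sox9 are transcription factors known to maintain bulge cells in mouse, and Lgr5 marks cells of the lower bulge and hair germ that can rebuild a follicle.

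The Mus library held 130039670 UMIs, 76.7% of them in cells. The Lgr5/Lhx2 cells were shallower than the other Krt5 cells, which met every limit and held no Lgr5 or Lhx2 UMI. Their median was 5807 UMIs and 1971 genes with 3.63% mitochondrial UMIs, against 11748.5 UMIs, 2771.5 genes and 2.96% in 6456 other Krt5 cells. When each cell was thinned to 3000 UMIs the order of the gene numbers was the opposite, with a median of 1246 genes in Lgr5/Lhx2 cells and 1129 in other Krt5 cells. Depth moves with the ratios below, so they were repeated with each cell thinned to 3000 UMIs and, as an alternative added after the data were seen, in cells under 10000 UMIs. Between the libraries 34 cell barcodes were shared, against 48.6 if drawn independently, and 1 of them belonged to an Lgr5/Lhx2 cell. No doublets were removed by the rule; a doublet score would have left out 21 of the 195 Lgr5/Lhx2 cells (10.8%) and 6.11% of all Mus cells.

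Both genes of the rule were sparse. Lhx2 had 433 UMIs in 178 of the Lgr5/Lhx2 cells, with a median of 2 and a maximum of 10 per cell, and Lgr5 had 174 UMIs in 109 cells, with a median of 1 and a maximum of 6. Both genes were detected in 92 cells, Lhx2 alone in 86 and Lgr5 alone in 17. At the threshold, 88 cells held exactly 2 Lgr5 and Lhx2 UMIs and entered, and 288 cells held 1 and stayed out. The rule further left out 13 of 208 cells with at least 2 such UMIs, all on Krt79. As a background, at least 2 such UMIs were found in 2 of 1858 suprabasal cells (0.108%), which are deeper, with a median of 17754 UMIs, and in none of 50 endothelial cells (Clopper-Pearson upper bound 7.11%).

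Lgr5 lies on chr10:115450311-115587780 (minus strand), Lhx2 on chr2:38339281-38369733 (plus), Shisa2 on chr14:59625308-59631660 (plus), Tbx1 on chr16:18580979-18590671 (minus), Phlda1 on chr10:111506286-111508645 (plus) and Mycn on chr12:12936093-12941914 (minus), in GENCODE M21 on GRCm38, the same assembly as mm10; all are annotated as protein-coding. The promoter windows of Shisa2, Mycn and Lhx2 are shown because the first pair were among the genes with the highest ratios in the Lgr5/Lhx2 cells and Lhx2 chose them. Each runs from 250 bases before to 50 after a RefSeq start site (GRCm38.p6), 5′ to 3′ on the strand of the gene, and capitals mark CTTTG or its complement CAAAG, the core bound by TCF and LEF factors, which carry Wnt signals to DNA. The Shisa2 window is chr14:59625031-59625330 (plus), the Mycn window chr12:12941787-12942086 (minus) and the Lhx2 window, the second of that gene, chr2:38351058-38351357 (plus), which held 1 CTTTG; the first, chr2:38339031-38339330 at the annotated gene start, held 0 on either strand.
Shisa2: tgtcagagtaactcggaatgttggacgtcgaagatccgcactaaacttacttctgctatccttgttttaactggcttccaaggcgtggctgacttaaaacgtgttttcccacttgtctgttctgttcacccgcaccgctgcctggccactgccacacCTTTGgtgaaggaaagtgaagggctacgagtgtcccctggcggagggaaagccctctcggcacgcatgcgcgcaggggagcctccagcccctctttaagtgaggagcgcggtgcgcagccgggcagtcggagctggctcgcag
Mycn: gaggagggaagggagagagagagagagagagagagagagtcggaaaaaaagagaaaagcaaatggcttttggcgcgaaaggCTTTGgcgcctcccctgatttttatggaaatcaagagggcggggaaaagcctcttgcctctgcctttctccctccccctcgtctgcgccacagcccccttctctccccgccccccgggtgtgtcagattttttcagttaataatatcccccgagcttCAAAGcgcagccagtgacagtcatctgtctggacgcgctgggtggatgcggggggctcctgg
Lhx2: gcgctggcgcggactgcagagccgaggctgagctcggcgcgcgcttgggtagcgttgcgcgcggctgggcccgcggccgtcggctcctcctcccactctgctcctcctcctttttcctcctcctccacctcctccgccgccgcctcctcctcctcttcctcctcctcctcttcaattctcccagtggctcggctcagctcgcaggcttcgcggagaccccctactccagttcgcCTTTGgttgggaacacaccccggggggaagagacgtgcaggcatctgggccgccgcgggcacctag
Of 19 genes searched, the 4 label genes other than Shisa2 and the 15 genes named below as highest, 14 had entries, with 24 windows that partly overlap. CTTTG on either strand was in 15 of these 24 windows and in 53.9% of all 32851 windows of the table. TAATTA, a core of LIM homeodomain factors that reads the same on both strands, was in 1 of the 24 windows and in 5.29% of all. TGTGGT, a core of RUNX factors, was in 0 of the 24 windows on either strand and in 16.8% of all.

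The 3 genes that name these cells beside Lgr5 and Lhx2 were all high in them. Shisa2, which restrains Wnt and FGF receptors in the endoplasmic reticulum, stood at 135 CPM (counts per 1000000 summed UMIs of a group) in Lgr5/Lhx2 cells and at 1.81 CPM in other Krt5 cells, a ratio of 74.4 (95% interval 60.2 to 92.1). Tbx1, a T-box transcription factor of the bulge, stood at 160 CPM in Lgr5/Lhx2 cells and 16.4 CPM in other Krt5 cells, a ratio of 9.73 (8.46 to 11.2). Phlda1, a pleckstrin-domain protein used as a marker of follicle stem cells, stood at 127 CPM in Lgr5/Lhx2 cells and 11.3 CPM in other Krt5 cells, a ratio of 11.3 (9.64 to 13.2). Shisa2 was detected in 111 Lgr5/Lhx2 cells (56.9%) and in 115 other Krt5 cells (1.78%), and in 1.51% of suprabasal cells. At 3000 UMIs per cell Shisa2 was detected in 39.0% of Lgr5/Lhx2 cells and 0.914% of other Krt5 cells. The shares were 56.9% and 19.3% for Tbx1 and 40.5% and 11.2% for Phlda1 in Lgr5/Lhx2 cells and other Krt5 cells, and after thinning 36.4% and 5.72% for Tbx1 and 21.0% and 3.25% for Phlda1. At least 1 of the 3 genes was seen in 89.2% of Lgr5/Lhx2 cells, and at least 2 of them in 100 of 195 cells (51.3%), against 202 of 6456 other Krt5 cells (3.13%). All 3 genes named in the label were higher in the group, while 21 Lgr5/Lhx2 cells held no UMI of any of the 3. The members and gene lists were chosen with earlier results of these data known, so these levels only describe the group.

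**Figure D1:**
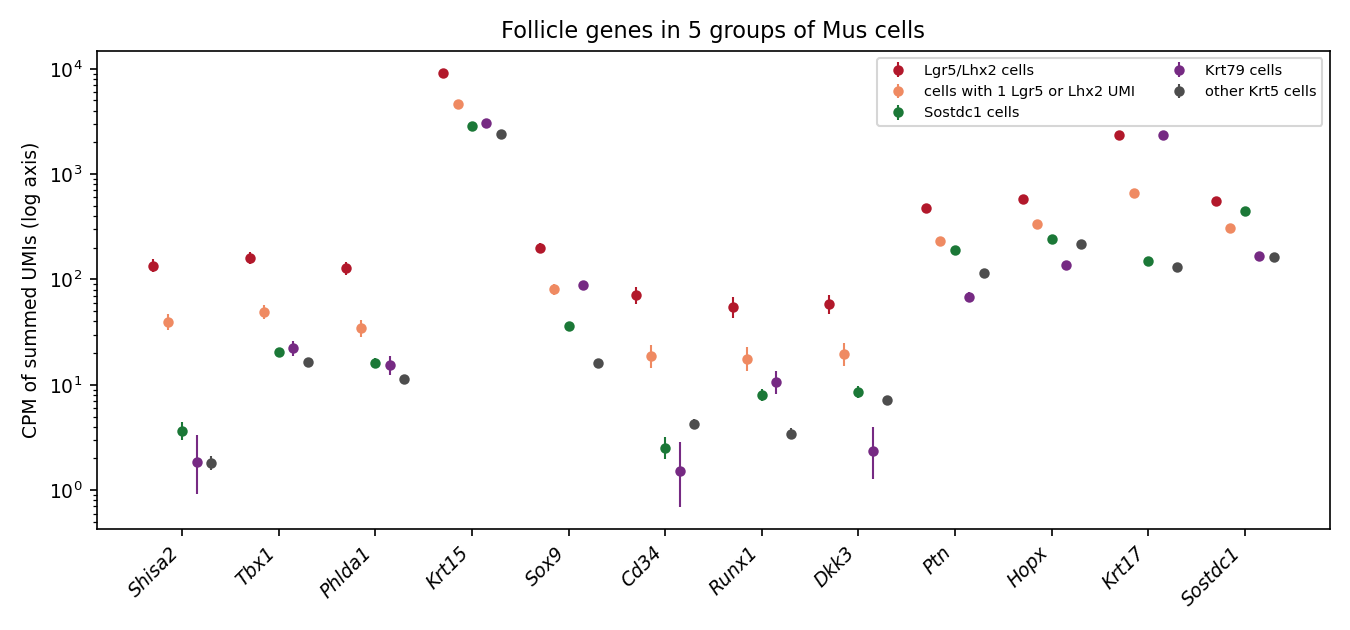
Level (CPM of summed UMIs, log axis) of 12 follicle genes in Lgr5/Lhx2 cells, cells with 1 Lgr5 or Lhx2 UMI, Sostdc1 cells, Krt79 cells and other Krt5 cells of the Mus library; points are group values and bars exact Poisson 95% intervals. Shisa2 stands at 135 CPM in Lgr5/Lhx2 cells and 1.81 CPM in other Krt5 cells, while Krt17 stands at 2371 CPM in Lgr5/Lhx2 cells and 2356 CPM in Krt79 cells.

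A list of bulge markers was compared next. It includes Shisa2, Tbx1 and Phlda1, so the label genes given above are counted again in its numbers, here and below. Of its 19 genes with at least 10 CPM on average over the groups, 17 were at least 2-fold higher in Lgr5/Lhx2 cells than in other Krt5 cells and 1 was at least 2-fold lower, with a median log2 ratio of 2.04. Over all 7041 genes compared, 7.93% were at least 2-fold higher, 3.55% at least 2-fold lower and the median log2 ratio was 0.20. Krt15, the classical bulge keratin, had a median of 63 UMIs per Lgr5/Lhx2 cell, was seen in 192 of the 195, and stood at 9066 CPM, against 2413 CPM in other Krt5 cells. Sox9 stood at 199 CPM against 16.2 CPM in other Krt5 cells, a ratio of 12.2 (10.8 to 13.9), and Runx1, a factor of follicle stem cell activation, at 54.4 against 3.45 CPM, a ratio of 15.8 (12.2 to 20.2). Cd34, the surface glycoprotein by which mouse bulge cells are sorted, stood at 70.8 CPM in Lgr5/Lhx2 cells and 4.28 CPM in other Krt5 cells, a ratio of 16.5 (13.2 to 20.5), but was detected in only 56 of the 195 cells. Dkk3, a secreted protein of the Dickkopf family, was 8.18-fold higher, the matrix protein gene Npnt, which anchors the arrector pili muscle to the bulge, 4.50-fold, the growth factor gene Ptn 4.11-fold and Postn, a matricellular protein, 2.90-fold. The gene of the list that was lower was Il1r2, a decoy receptor for interleukin 1, at 27.5 CPM in Lgr5/Lhx2 cells and 72.5 CPM in other Krt5 cells. Nfatc1, a factor of bulge quiescence, was 1.67-fold higher (1.15 to 2.35), inside the 2-fold limit.

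Of 10 genes compared from the hair germ and outer root sheath list, 6 were at least 2-fold higher and 0 lower. Over all genes 7.93% were higher and 3.55% lower. Krt17, a keratin of the outer root sheath, stood at 2371 CPM in Lgr5/Lhx2 cells and 131 CPM in other Krt5 cells, and the counts were very uneven, with a median of 2 and a maximum of 525 UMIs per Lgr5/Lhx2 cell. Barx2, a homeobox factor, was 12.1-fold higher, Wif1, a secreted Wnt inhibitor, 9.71-fold and Tgfb2, a TGF-beta ligand of the hair germ, 7.75-fold. Lef1 and Gli1, effectors of Wnt and Hedgehog signals in the growing follicle, fell under the level minimum, with 25 UMIs each in 195 Lgr5/Lhx2 cells, against 12 UMIs of Lef1 and 23 of Gli1 in 6456 other Krt5 cells. Of 9 upper follicle genes compared, 5 were at least 2-fold higher and 0 lower, among them Sostdc1, an extracellular BMP and Wnt modulator, at 554 and 163 CPM, and Lgr6, a receptor of the isthmus, at 31.5 and 7.38 CPM, in Lgr5/Lhx2 cells and other Krt5 cells.

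Of 12 genes of the basal interfollicular epidermis 8 were within 2-fold, with a median log2 ratio of -0.14 over the list. In Lgr5/Lhx2 cells 1 was at least 2-fold higher (Thbs1) and 3 were lower: the surface antigens Ly6a (ratio 0.394) and Ly6d (0.342) and the cyclooxygenase gene Ptgs1 (0.231). Krt14, the partner of Krt5, stood at 10227 CPM in Lgr5/Lhx2 cells and 16354 CPM in other Krt5 cells, a ratio of 0.625 (0.616 to 0.635). Of 12 genes of differentiating epidermis 7 were lower and 1, Flg, higher, with a median log2 ratio of -1.19. A single cell of 35948 UMIs held 29.4% of the UMIs of this list, among them 95.9% of Flg, 84.0% of Lor and 81.9% of Klk7. Without that cell, an alternative added after the data were seen, 11 of the 12 genes were lower and 0 higher, with a median log2 ratio of -1.75, and Lor, a protein of the cornified envelope, had a ratio of 0.253, against 1.54 with it. Krt10, the first keratin of suprabasal cells, stood at 2800 CPM in Lgr5/Lhx2 cells and 16882 CPM in other Krt5 cells, and the profile of free RNA held it at 11170 CPM. The other Krt5 cells include cells on their way to the suprabasal layers: Krt10 was below Krt5 in 70.8% of Lgr5/Lhx2 cells and in 59.5% of other Krt5 cells. Against the 3842 other Krt5 cells with fewer Krt10 than Krt5 UMIs, a comparison added after the data were seen, 0 of 11 differentiation genes were lower and 5 were higher. Only the reference was limited in this way, here and below. All 195 Lgr5/Lhx2 cells were kept, and 138 of them met the same limit. Without the cell of 35948 UMIs 2 of 10 were higher, Calml3 (7.41-fold) and Sbsn (2.10-fold), and 0 lower. Krt14 had a ratio of 0.396 in that comparison, and 15 of 19 bulge genes stayed at least 2-fold higher with a median log2 ratio of 1.53. There 6.7% of 7102 genes were at least 2-fold higher and 2.31% lower.

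Genes with at least 20 UMIs and 30 CPM in the higher group were ranked by the interval bound nearest to 1. Of these, the 15 with the highest ratios against other Krt5 cells were Mycn, Slc38a4, Shisa2, Cntfr, Pcp4, Mfap2, Pcdh17, Tnfrsf11b, Sema3e, Fam13a, Fst, Pthlh, Aspn, Krt17 and Ptprk. Mycn, a growth-promoting MYC factor, had 116 UMIs in 50 of the 195 Lgr5/Lhx2 cells (25.6%) and 68 UMIs in all 6456 other Krt5 cells, or 76.0 and 0.776 CPM, a ratio of 98.0 (72.0 to 134). Slc38a4, an amino acid transporter, was 109-fold higher (67.5 to 178), seen in 21.5% of Lgr5/Lhx2 cells. Cntfr, the receptor subunit for ciliary neurotrophic factor, was 93.3-fold higher, the calmodulin-binding peptide gene Pcp4 86.1-fold, the protocadherin Pcdh17 71.8-fold and the microfibril protein Mfap2 67.8-fold, each seen in 11.3 to 19.0% of the cells. Tnfrsf11b, the decoy receptor osteoprotegerin, was 56.5-fold higher, and Sema3e, a secreted guidance cue, 36.8-fold. Fst, the activin and BMP antagonist follistatin, stood at 242 CPM in Lgr5/Lhx2 cells and 9.68 CPM in other Krt5 cells, and Pthlh, the parathyroid hormone-like peptide that restrains follicle growth in mouse skin, was 22.8-fold higher (18.7 to 27.7). All 15 stayed at least 2-fold higher under every alternative that gave a value, but the ratios were smaller with all cells thinned to 3000 UMIs, at 16.0 to 63.6, and in cells under 10000 UMIs, at 10.9 to 53.7.

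Ranked under the same limits, the 15 genes with the lowest ratios were Krt10, Krt2, Mt4, Ly6g6c, Serpinb3b, Calm4, Gsta1, Igfbp3, Calm5, Dapl1, Clca3a2, Gsta2, Tmprss4, Cfap57 and Oas1f, with ratios of 0.166 to 0.240. In cells under 10000 UMIs 12 of the 15 stayed at least 2-fold lower, and Ly6g6c (ratio 0.521), Serpinb3b (0.512) and Gsta1 (0.542) did not. Krt10 and Krt2 are keratins of suprabasal cells, and Calm4 and Calm5 are calmodulin-like proteins of the epidermis. Set against the other Krt5 cells with fewer Krt10 than Krt5 UMIs, 6 of the 15 stayed at least 2-fold lower, and 6 had a ratio above 1, Krt10 at 1.15 among them. The lowest of the 6 that stayed was Igfbp3, a binding protein of insulin-like growth factors, at 34.1 CPM in Lgr5/Lhx2 cells and 170 CPM in all other Krt5 cells; its ratio was 0.201 against all of them and 0.161 against those low in Krt10.

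**Figure D2:**
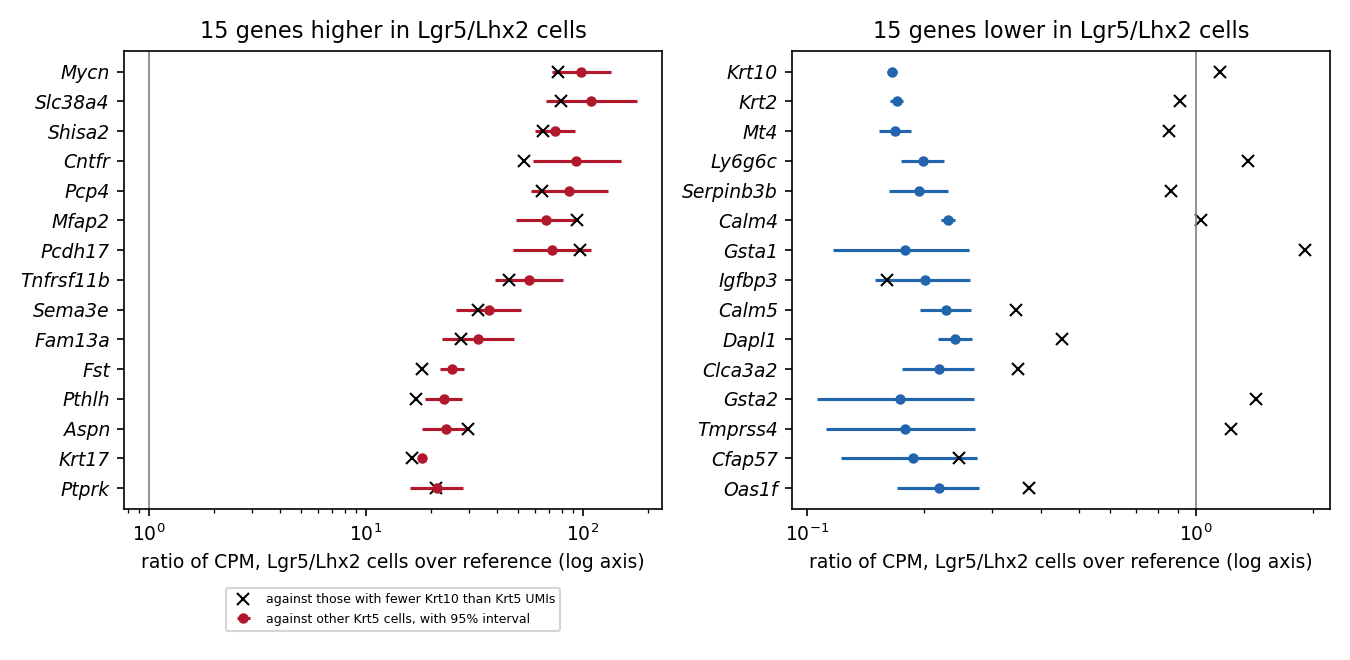
Ratio of CPM in Lgr5/Lhx2 cells over other Krt5 cells (log axis) for the 15 genes of highest and the 15 of lowest ratio; circles with bars are the ratio with its 95% interval for counting error, and crosses the ratio over those other Krt5 cells with fewer Krt10 than Krt5 UMIs. The crosses of the higher genes lie between 16.3 and 96.6, with Cntfr at 53.5 below its circle at 93.3, while those of 6 lower genes, among them Krt10 at 1.15, lie above 1.

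Of 26 Wnt pathway genes compared 13 were at least 2-fold higher in Lgr5/Lhx2 cells, 12 were within 2-fold and 1 was lower, with a median log2 ratio of 1.24, beside 7.93% higher over all genes. Among the receptors, Fzd2 was 13.2-fold higher, at 40.6 CPM in Lgr5/Lhx2 cells and 3.08 CPM in other Krt5 cells, Fzd7 9.21-fold, Fzd1 5.59-fold, Lgr6 4.26-fold and Lgr4 2.84-fold. Among the ligands, Wnt6 was 7.51-fold higher and Wnt3 lower, with a ratio of 0.266 (0.155 to 0.427). The inhibitors Wif1, Sostdc1 and Shisa2 and the Dickkopf family member Dkk3 were higher by 3.39- to 74.4-fold. Of the nuclear effectors Tcf7 was 3.60-fold and Tcf7l2 3.50-fold higher.

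Of 19 genes compared from the BMP and TGF-beta pathway, 8 were at least 2-fold higher and 1 lower, beside 7.93% and 3.55% over all genes. The secreted BMP antagonist Grem1 had 42 UMIs in Lgr5/Lhx2 cells, or 27.5 CPM, and stood at 0.274 CPM in other Krt5 cells, a ratio of 100 (59.5 to 173). Fst was higher, as given above, and the decoy receptor Bambi 9.88-fold higher, while the ligand Bmp4 had a ratio of 0.243 (0.121 to 0.435). Of the Id genes, direct targets of BMP signals, 3 were at least 2-fold higher, Id2 by 4.89-fold, Id4 by 3.55-fold and Id3 by 2.06-fold, and Id1 stood inside the 2-fold limit with a ratio of 1.93 (1.76 to 2.12). Of 4 Hedgehog genes compared 3 were higher, the receptor and target Ptch1 by 7.72-fold and the co-receptors Boc by 6.04-fold and Gas1 by 3.60-fold.

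Of 9 FGF genes compared 4 were higher, led by the receptor Fgfr1, at 57.0 CPM in Lgr5/Lhx2 cells and 6.36 CPM in other Krt5 cells, with the target genes Etv4, Spry2 and Dusp6 by 2.13- to 3.54-fold. Of 10 Notch genes 1 was higher, the glycosyltransferase gene Lfng (3.15-fold), a count near the share over all genes (7.93% higher and 3.55% lower). Of 31 follicle transcription factors 14 were higher and 2 lower; beside those named, Irx5 was 10.3-fold and Irx3 4.29-fold higher, and the lower pair, Grhl3 (ratio 0.345) and Ovol1 (0.383), serve epidermal differentiation. Both of these stood above 1 against the other Krt5 cells with fewer Krt10 than Krt5 UMIs, at 1.51 and 1.08.

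Of 27 adhesion and basement membrane genes 7 were higher and 0 lower, beside 7.93% higher over all genes. They were led by Fbln1 (6.95-fold), a fibulin, and Egfl6 (5.78-fold), a ligand deposited between bulge and arrector pili nerves and muscle. Against the other Krt5 cells with fewer Krt10 than Krt5 UMIs, 4 of 27 were higher and 0 lower, with a median log2 ratio of 0.12. Of 13 secreted immune regulators 5 were higher and 4 lower. Pdgfa, a growth factor that signals to dermal cells, stood at 167 CPM in Lgr5/Lhx2 cells and 28.4 CPM in other Krt5 cells, and the chemokine Cxcl14 at 264 and 89.3 CPM. The alarmins Il33 (ratio 0.376) and Tslp (0.311) and the interleukin 1 antagonist Il1rn (0.298) were lower, as was Il1r2. Il18 was 2.96-fold higher, with 88.5% of its UMIs in 1 cell of 35948 UMIs, the cell that also held most of the Flg and 84.0% of the Lor UMIs.

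Genes of the cell cycle differed little between the 195 Lgr5/Lhx2 cells as a group and other Krt5 cells. Of 23 compared 2 were at least 2-fold higher (Mcm2 and Ung) and 0 lower, near the shares over all genes of 7.93% and 3.55%. Mki67, a protein of cycling cells, stood at 39.3 CPM in Lgr5/Lhx2 cells and 38.9 CPM in other Krt5 cells. The Mki67 UMIs were uneven over the clusters described below. Of the 60 in Lgr5/Lhx2 cells, 40 lay in the 21 cells outside the leading and second clusters, at 128 CPM. The 152 cells of the leading cluster stood at 18.3 CPM (11.2 to 28.2), and the 22 of the second held 0 UMIs. Of the 100 Top2a UMIs, 73 lay in the same 21 cells. With all cells at 3000 UMIs, Mki67 was detected in 4.62% of Lgr5/Lhx2 cells (2.13 to 8.58%) and 6.94% of other Krt5 cells (6.33 to 7.59%), and in 10.3% and 16.9% without thinning. Against the other Krt5 cells with fewer Krt10 than Krt5 UMIs, 5 of the 23 were lower and 1 higher, with a median log2 ratio of -0.55. Of 13 cell cycle inhibitors and quiescence genes, Txnip was higher (2.89-fold), and Cdkn1a (ratio 0.300), Cdkn2b (0.149) and Btg2 (0.445) were lower. Against the Krt5 cells low in Krt10, 1 of 11 genes compared from this list was lower and 1 higher, with a median log2 ratio of -0.15. Of 15 immediate early genes, which cell dissociation can induce, 1 was higher, Jun by 2.05-fold.

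The follicle genes were graded with the number of Lgr5 and Lhx2 UMIs, though less so above the threshold. Shisa2 stood at 1.81 CPM in cells with 0 such UMIs, 39.9 with 1, 122 with 2, 130 with 3 and 154 with 4 or more. Sox9 stood at 16.2, 81.2, 211, 201 and 182 CPM in the same series, and Cd34 at 4.28, 18.6, 82.6, 58.7 and 66.4 CPM. The intervals of all 3 genes overlap among cells with 2, 3 and 4 or more UMIs. Phlda1 stood at 11.3, 34.3, 89.2, 92.9 and 199 CPM, and Krt15 was highest with 2 UMIs, at 10765 CPM. Krt10 stood at 16882, 14429, 2550, 3030 and 2913 CPM, so its levels in cells with 1 UMI lay near those of cells with 0. Cells with 1 UMI were also deeper, with a median of 9757 UMIs.

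**Figure D3:**
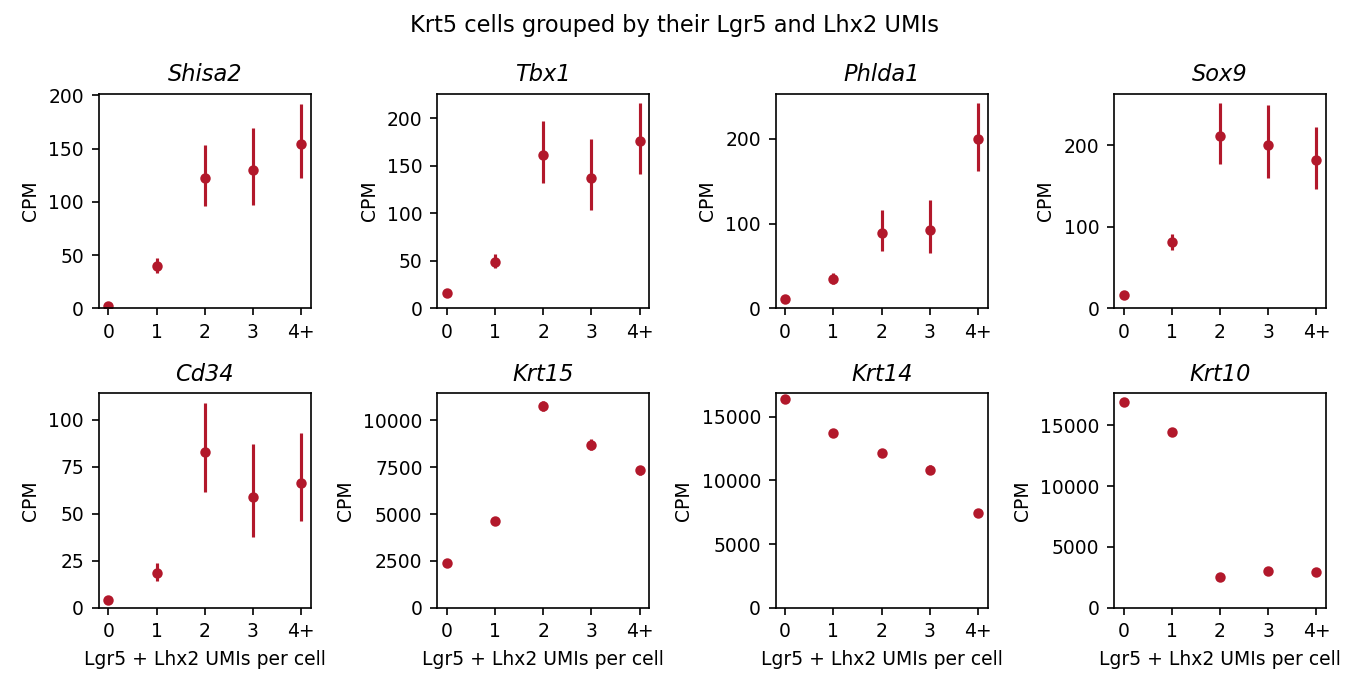
Level (CPM of summed UMIs) of 8 genes in Krt5 cells of the Mus library with 0, 1, 2, 3 and 4 or more Lgr5 and Lhx2 UMIs (6456, 288, 88, 53 and 54 cells); points are group values and bars exact Poisson 95% intervals. Shisa2, Tbx1, Sox9, Cd34 and Krt15 step up between 1 and 2 UMIs while Krt10 is at 14429 CPM with 1 and 2550 CPM with 2.

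The Lgr5/Lhx2 cells were not of 1 kind. When all Mus cells were clustered without Lgr5, Lhx2, Krt5 and Krt79 among the variable genes, which gave 26 clusters, 152 of the 195 (77.9%) lay in a cluster of 310 cells and 22 in a cluster of 77 cells, with the other 21 spread over 11 clusters. The cluster of 310 was led by Pcp4, Mycn, Lgr5, Lhx2, Mfap2 and Shisa2, and 15 of 22 bulge markers were raised in it. The cluster of 77 was led by Aspn, Pthlh, Krt42, Krt7 and Shisa2; 14 bulge markers, 5 of the hair germ and outer root sheath and 7 of the upper follicle were raised in it, and it was left unnamed. Because the clusters were built from these genes, their differences are given as a description.

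The 152 cells of the larger cluster held Lgr5 at 146 CPM, the 22 of the smaller at 8.44 CPM from 1 UMI. Lhx2 stood at 297 CPM in the 152 and 532 CPM in the 22. As the 22 held 1 Lgr5 UMI, the rule itself required Lhx2 in them, so its levels are a description only. Shisa2 (133 and 380 CPM), Sox9 (198 and 490 CPM) and Krt15 (10248 and 11312 CPM) were found in both. Tbx1 (197 and 76.0 CPM), Phlda1 (156 and 25.3 CPM), Cd34 (87.7 and 8.44 CPM) and Id2 (269 and 42.2 CPM) were higher in the 152 cells, and Mycn had 106 UMIs there and 0 in the 22. Krt17 stood at 811 CPM in the 152 cells and 21661 CPM in the 22, whose 2566 UMIs were most of the 3619 in all 195 cells. Pthlh (13.7 and 1038 CPM), Aspn, a small leucine-rich proteoglycan (5.48 and 709 CPM), Krt7 (2.74 and 338 CPM), Fst (134 and 1334 CPM) and Tgfb2 (21.0 and 490 CPM) were likewise higher in the 22. Likewise 123 of the 145 Pthlh UMIs and 84 of the 96 Aspn UMIs lay in the 22 cells, so the high ratios of Krt17, Pthlh and Aspn rest largely on them; the 152 cells alone stood at 811, 13.7 and 5.48 CPM, against 131, 4.16 and 2.69 CPM in other Krt5 cells. The 22 cells had 0 UMIs of Mycn, Pcdh17 and Mfap2. The median depths were close, 5585.5 UMIs in the 152 and 5174 in the 22.

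**Figure D4:**
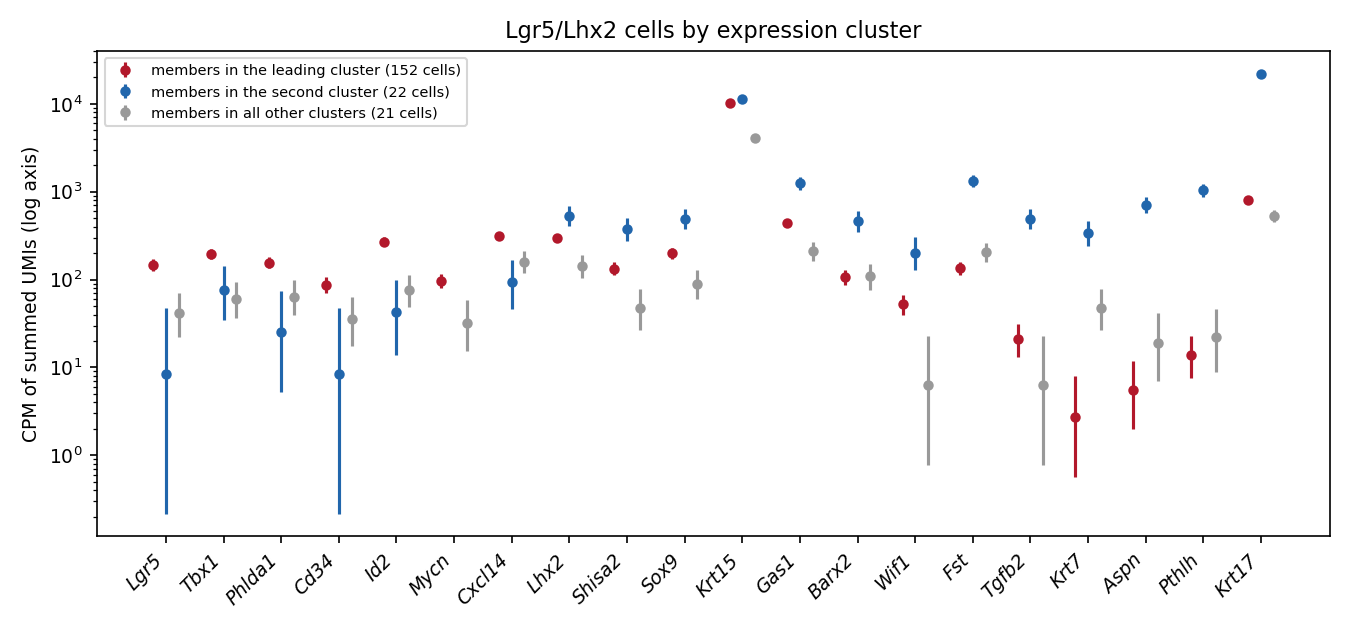
Level (CPM of summed UMIs, log axis) of 20 genes in Lgr5/Lhx2 cells of the leading cluster (152 cells), the second cluster (22 cells) and all other clusters (21 cells); points are subset values, bars exact Poisson 95% intervals, and a subset with 0 UMIs of a gene has no point. Lgr5, Cd34 and Mycn are higher in the 152 cells and Krt17, Pthlh and Aspn in the 22, with Krt17 at 21661 CPM there.

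The same clusters held cells that the rule missed. In the cluster of 310, 75 cells had 0 and 82 had 1 Lgr5 or Lhx2 UMI, and the 158 cells outside the rule had Shisa2 at 129 CPM and Tbx1 at 201 CPM, beside 133 and 197 CPM in the 152 inside it. Their median depth was 4372.5 UMIs. The 55 other cells of the smaller cluster held 0 Lgr5 UMIs, with Shisa2 at 287 CPM and Pthlh at 567 CPM.

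Lgr5/Lhx2 cells with both genes of the rule and those with Lhx2 alone differed in some of these genes and stood close in others. Those with both genes had Krt17 at 1100 CPM, Fst at 134 CPM and Pthlh at 33.5 CPM, and those with Lhx2 alone had 4637, 417 and 203 CPM. Mycn stood at 82.5 CPM with both genes and 76.6 CPM with Lhx2 alone, and Pcp4 at 46.4 and 45.9 CPM. Shisa2 stood at 108 CPM with both genes, 194 CPM with Lhx2 alone and 49.2 CPM with Lgr5 alone, and Tbx1 at 157, 168 and 141 CPM. Across 2450 genes of at least 50 CPM, 1.88% were at least 2-fold higher in cells with both genes than in cells with Lhx2 alone and 1.14% lower. The highest was Flg, which rests on 1 cell. Among the other leading genes Krt16, Lor, Hbb-bs, Il18, Krt23 and Klk7 each had 81.9 to 89.8% of their UMIs in a single Lgr5/Lhx2 cell. How far the share of 1.88% rests on such cells was not tested.

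The 21 cells outside both clusters were deeper, with a median of 12888 UMIs, and lower in the label genes than the 152 cells. Shisa2 stood at 47.9 CPM in the 21 cells and 133 CPM in the 152, Tbx1 at 60.7 and 197 CPM, Phlda1 at 63.9 and 156 CPM, and the bulge keratin Krt15 at 4085 and 10248 CPM. Krt14 was higher in the 21 cells, at 13378 CPM, against 9986 CPM in the 152. The 21 cells also held Lor at 8198 CPM, Top2a at 233 CPM and Hbb-bs at 2823 CPM; of the Hbb-bs UMIs of all 195 cells 86.6% lay in 1 cell.

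Markers of other cell types were also counted. All 4 fibroblast genes compared were at least 2-fold higher in Lgr5/Lhx2 cells than in other Krt5 cells, with a median log2 ratio of 1.91. The fibroblast list had 670 UMIs over 81 of the 195 cells, 66.1% of them in 1 cell. Without that cell 1 of the 4 genes was higher and 2 were lower: the collagen gene Col1a2 stood at 51.3 CPM in Lgr5/Lhx2 cells and 19.9 CPM in other Krt5 cells, and Dcn, the proteoglycan decorin, at 87.5 and 51.3 CPM, whereas the collagen genes Col1a1 and Col3a1 had ratios of 0.229 and 0.135. Col1a2 was detected in 28.9% and Dcn in 20.4% of the 152 cells of the larger cluster. Melanocyte markers summed to 36 UMIs with 6 of 8 genes at 0, endothelial markers to 17 UMIs with 3 of 8 at 0, Merkel cell markers to 1 UMI with 5 of 6 at 0, and markers of Langerhans cells and macrophages to 127 UMIs with 2 of 8 at 0. In Lgr5/Lhx2 cells and other Krt5 cells the melanocyte list stood at 23.6 and 3.41 CPM, with 30 of the 36 UMIs from Mitf. The Schwann cell list stood at 41.9 and 20.8 CPM and the chondrocyte list, which holds Sox9, at 216 and 63.5 CPM. Lists for endothelium (11.1 and 40.7 CPM), T cells (59.6 and 65.6 CPM) and Langerhans cells and macrophages (83.2 and 97.3 CPM) were lower. The largest share of a list's UMIs in 1 cell was 8.33% for melanocytes, 11.8% for blood endothelium, 4.9% for sebocytes, 7.81% for Schwann cells, 23.1% for T cells and 35.4% for Langerhans cells and macrophages. In 1 cell lay 89.8% of the Krt16 UMIs. The part of these cells in the ratios of other genes was not tested beyond leaving out the cells with the highest doublet scores, those outside both clusters and, for the fibroblast and differentiation lists, the 1 cell with most UMIs of the list.

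Cells of the library chosen on Sostdc1 or Krt79 were compared in the same way. Whether the Sostdc1 cells are follicle cells was not tested. Hair germ and outer root sheath genes summed to 467 CPM in them and 471 CPM in all other Krt5 cells, which include them. Upper follicle genes, a list that holds Sostdc1 itself, summed to 1584 and 1483 CPM. The sums were 3658 and 3036 CPM for bulge genes and 27947 and 26976 CPM for basal interfollicular genes. Against 2163 Sostdc1 cells, the other Krt5 cells with at least 2 Sostdc1 UMIs, 6.22% of 7075 genes were at least 2-fold higher in Lgr5/Lhx2 cells and 2.28% lower. The highest were Mfap2 (87.6-fold), Pcdh17, Slc38a4, Cntfr and Mycn (53.8-fold), and the lowest Mt4, Krt10, Krt2, Foxq1 and Clca3a2, with ratios of 0.200 to 0.277. Sostdc1 itself stood at 554 CPM in Lgr5/Lhx2 cells, beside 450 CPM in the cells chosen for it. Against 448 Krt79 cells, with at least 5 Krt79 UMIs, 8.79% of 7175 genes were at least 2-fold higher and 6.62% lower. Lowest were Defb6, a defensin of the upper follicle, at 69.5 CPM in Lgr5/Lhx2 cells and 5255 CPM in Krt79 cells, and the lipid genes Elovl3, Cidea, Fa2h and Elovl6, which sebaceous cells use. Sox9 stood at 199 and 88.1 CPM and Krt17 stood at 2371 and 2356 CPM, in Lgr5/Lhx2 cells and Krt79 cells.

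The rule was then applied to the Acomys library, without a mitochondrial limit because its gene list had 0 mitochondrial genes. It found 471 of 4697 cells (10.0%; 9.18 to 10.9%), of which 430 carried Lhx2 alone, 40 both genes and 1 Lgr5 alone. Lhx2 was more common in the free RNA of that library, at 43.0 CPM against 6.61 CPM in Mus. At least 2 Lgr5 and Lhx2 UMIs occurred in 13 of 1173 Acomys suprabasal cells (1.11%), and these 13 were themselves among the 471. The part of free RNA in the larger share was not tested.

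Within Acomys the cells of the rule were set against 2890 other Krt5 cells of that library, where 6.02% of 5579 genes were at least 2-fold higher and 3.5% lower. Of 13 bulge genes compared 10 were higher and 0 lower, with a median log2 ratio of 1.53. Sox9 was 5.09-fold higher, Dkk3 4.62-fold, Tbx1 4.22-fold, Runx1 2.88-fold, Phlda1 2.74-fold and Krt15 2.59-fold. Of the 15 genes named as highest in Mus, 6 reached the level minimum in Acomys and 5 were at least 2-fold higher: Cntfr (23.3-fold), Pcp4 (15.2-fold), Sema3e (9.78-fold), Aspn (7.88-fold) and Krt17 (3.02-fold). The other was Fst, 1.58-fold higher. Of the 15 lowest, 6 could be compared and all 6 were at least 2-fold lower, Igfbp3 (ratio 0.112) and Krt10 (0.253) among them. Shisa2 and Cd34 differed in detection: the Acomys cells of the rule held 1 UMI of Shisa2 and 0 of Cd34, against 206 and 108 UMIs in the Mus cells, and whether the Acomys annotation covers their 3' ends was not tested.

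**Figure D5:**
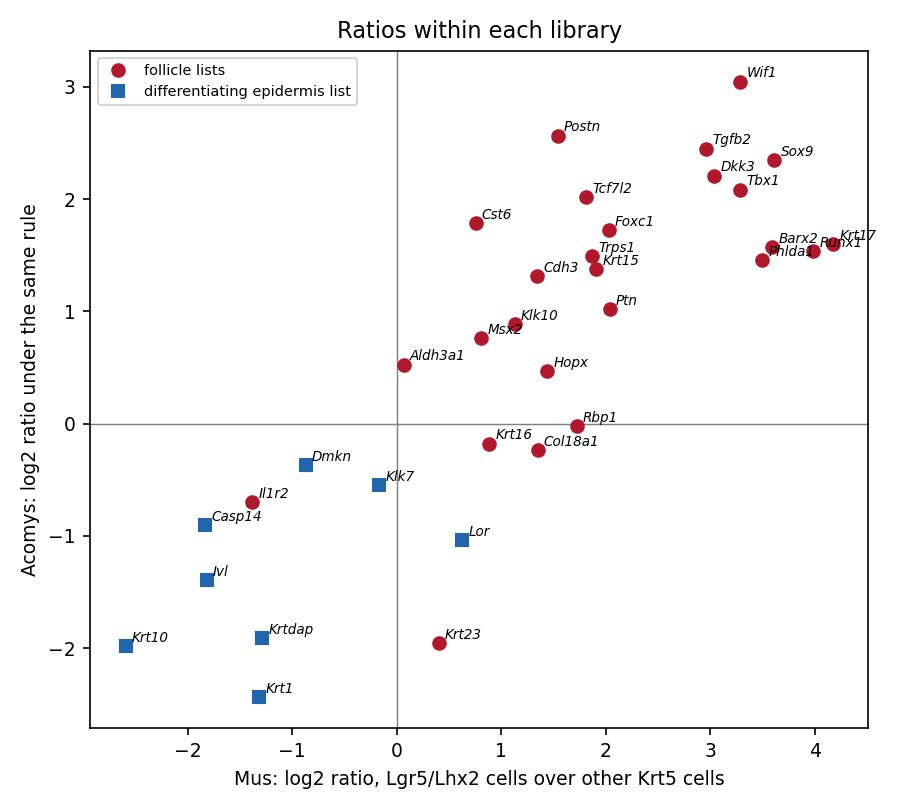
Log2 ratio of CPM in cells of the rule over other Krt5 cells in Mus (horizontal axis) and in Acomys (vertical axis), for 34 genes of the follicle lists (circles) and the differentiating epidermis list (squares) that reached 10 CPM in both libraries. Of 26 follicle genes 21 lie above 0 in both, and Krt10, Krt1 and Krtdap lie below 0 in both.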

How the data were processed

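Ear skin cells of Mus musculus and Acomys cahirinus were measured, 1 library each. Each deposited matrix holds whole-number UMI counts without normalization, which the authors made with Cell Ranger 2.2.0 on build mm10, per the submitters' processing notes; which annotation lies behind the Acomys gene names was not stated. Each matrix listed 737280 barcodes, cells or not, so the filters on cells are those stated with the rule. The members, gene lists and rule for named genes were chosen with earlier results of these data known.

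UMIs were summed per group and scaled to CPM of all UMIs of the group, with exact Poisson 95% intervals; ratios carry exact conditional binomial intervals, and log2 ratios a prior count of 0.5. Genes with a mean of at least 10 CPM over both groups were compared, and a ratio of at least 2 in either direction was counted. Named genes had at least 20 UMIs and 30 CPM in the higher group and at least 10 UMIs outside the Lgr5/Lhx2 cells; of these the text names the 15 highest and 15 lowest ratios, ranked on the bound closer to 1, and 5 and 5 against Sostdc1 and Krt79 cells, without ribosomal, mitochondrial, histone, MHC, immunoglobulin, T cell receptor and predicted genes. From lists, genes at least 2-fold apart with an interval excluding 1 and up to 4 of highest level could be named. Suprabasal cells held at least 10 Krt10 UMIs and at least 5 times as many as Krt5; endothelial cells held at least 3 Pecam1 and Cdh5 UMIs and under 3 of Krt5. Thinning drew 3000 UMIs per cell without replacement, and free RNA was the profile of barcodes of 1 to 10 UMIs. Clusters came from scanpy 1.11.5 and leidenalg 0.10.2 (2000 variable genes, 30 components, 20 neighbours, resolution 1, seed 1); a marker counted as raised where at least 20% of the cells of a cluster had it at 1.5 times the level of the others. On simulated counts of the same group sizes the interval of the ratio held the true fold for 97% of 100 genes made 4-fold higher and 94% of 100 made 4-fold lower. These counts were Poisson draws, the model behind the interval. They checked the calculation only and could not show how the interval does with counts that are uneven between cells. Alternatives were other filters, thresholds, scalings, doublet scores and cluster resolutions.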

Additional observations from a re-analysis of the deposited data

How the results depend on the processing

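No paired analysis was possible because each species has 1 library. The number of Lgr5/Lhx2 cells moved to 43 with a minimum of 10000 UMIs, 107 with at least 3 Lgr5 and Lhx2 UMIs, 92 with at least 1 UMI of each gene and 122 with Krt79 at 0. The median log2 ratio of the bulge list, 2.04, was 1.81 with a mean over cells, 1.53 against other Krt5 cells with fewer Krt10 than Krt5 UMIs and 1.5 in cells under 10000 UMIs. Genes at least 2-fold higher and lower numbered 2800 and 679 without a level minimum and 103 and 84 at 50 CPM, against 558 and 250; 164 were lower against the Krt10-low cells and 384 in the 2 clusters holding most Lgr5/Lhx2 cells. The leading cluster held 85.6% of them at resolution 0.5 and 51.3% at resolution 2, and 68.2% kept a UMI of Shisa2, Tbx1 or Phlda1 after thinning to 3000 UMIs. Against Krt10-low cells 6 named lower genes reversed: Krt10 (1.15), Ly6g6c (1.36), Calm4 (1.03), Gsta1 (1.91), Gsta2 (1.42) and Tmprss4 (1.23). The reference alone was chosen on Krt10, and the Lgr5/Lhx2 cells were not limited on it. All 15 named higher genes stayed at least 2-fold higher in each setting that gave a value; subtracting free RNA gave none for Slc38a4 and Cntfr. Without the cell with most UMIs of the list, 11 in place of 7 differentiation genes were lower and 0 in place of 1 higher, and 2 in place of 5 were higher against Krt10-low cells; of the fibroblast genes 1 in place of 4 was higher and 2 in place of 0 lower, and 2 in place of 4 higher against Krt10-low cells. The comparison with Krt10-low cells, the limit of under 10000 UMIs, the 2-cluster setting and leaving out such a cell were added after seeing the data. Genes with few UMIs, such as Elovl3 with 3 in Lgr5/Lhx2 cells, are limited by depth.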
